A study of Rattus norvegicus with 13 samples.

Results

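Expression of 10 genes of the Notch pathway was compared in mammary epithelial cells of rats inside and past the window of susceptibility (WOS), the age span in which the mammary gland is most prone to carcinogen-induced cancer. The genes were chosen by name and known role and not by a threshold on their values, but with earlier results of these data known. The study had already reported *Jag1* as up-regulated within WOS. The 10 genes were the ligands *Jag1*, *Jag2* and *Dll1*, the receptors *Notch1*, *Notch2* and *Notch3*, the receptor-modifying enzyme *Lfng*, the nuclear partner *Rbpj* and the target genes *Hes1* and *Hey1*, and all 10 were present among the 14790 genes of the table. RNA-seq libraries came from 13 Wistar-Furth rats, 6 of them 6 weeks old (within WOS) and 7 of them 10 weeks old (outside WOS), with 1 library per rat. The labels give no treatment or genetic change for either age. The cells were ductal fragments collected after the glands had been digested with collagenase, by filtration through nylon per the labels of these samples and by differential centrifugation per the study's methods, and they were enriched for epithelium but not sorted. The values are called normalized counts here. They are whole numbers whose low values and upper quartiles look like read counts per gene that were scaled per library and then rounded, but the scaling is not given in the sources used here. They are not divided by gene length, so levels are compared between ages for 1 gene at a time, and ratios of genes are compared only between rats.

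Notch signalling passes between touching cells. A ligand of the Jagged or Delta type on 1 cell binds a Notch receptor on its neighbour, the receptor is cut by an ADAM protease and then by γ-secretase, and the freed intracellular domain enters the nucleus, binds RBPJ and recruits a Mastermind coactivator to turn on targets such as the *Hes* and *Hey* repressor genes. In the mammary gland the pathway is known for its part in luminal cell fate and for its activity in several breast cancers, and *Notch3* is also well known in pericytes and vascular smooth muscle.

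The promoters of the genes discussed most below are shown to place the RBPJ motif. RefSeq promoter sequences (GRCr8, a build other than that of the counts) were matched by symbol for 9 of the 10 genes, and the 250 bases before the start of each gene were searched. The letters TGGGAA, a core bound by RBPJ, on either strand (TTCCCA when read from the opposite strand), are printed in capitals, and all other bases are in lower case, 5′ to 3′ on the strand of the gene. No other core was searched or marked.
*Jag1*, chr3:144894884-144895133, minus strand: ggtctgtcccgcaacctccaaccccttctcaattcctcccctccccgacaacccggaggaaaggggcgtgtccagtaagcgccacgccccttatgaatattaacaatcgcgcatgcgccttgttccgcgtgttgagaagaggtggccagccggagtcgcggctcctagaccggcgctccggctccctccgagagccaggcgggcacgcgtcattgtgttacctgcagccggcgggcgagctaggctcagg
*Notch1*, chr3:29721614-29721863, minus strand: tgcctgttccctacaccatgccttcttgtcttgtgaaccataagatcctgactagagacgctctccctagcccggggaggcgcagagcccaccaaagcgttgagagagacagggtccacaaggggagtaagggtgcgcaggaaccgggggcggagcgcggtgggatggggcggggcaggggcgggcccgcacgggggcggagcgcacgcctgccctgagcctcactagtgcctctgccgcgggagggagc
*Notch3*, chr7:11834586-11834835, minus strand: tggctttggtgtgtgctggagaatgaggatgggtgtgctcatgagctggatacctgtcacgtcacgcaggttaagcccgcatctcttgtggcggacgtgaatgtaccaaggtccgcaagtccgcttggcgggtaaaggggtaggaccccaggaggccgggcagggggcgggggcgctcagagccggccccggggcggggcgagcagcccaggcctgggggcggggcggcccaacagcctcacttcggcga
*Hes1*, chr11:84213046-84213295, minus strand: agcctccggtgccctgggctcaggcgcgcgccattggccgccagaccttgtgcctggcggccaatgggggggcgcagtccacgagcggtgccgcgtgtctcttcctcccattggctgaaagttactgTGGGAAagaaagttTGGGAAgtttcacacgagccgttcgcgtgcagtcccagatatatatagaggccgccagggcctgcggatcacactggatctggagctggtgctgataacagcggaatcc
*Lfng*, chr12:19152919-19153168, minus strand: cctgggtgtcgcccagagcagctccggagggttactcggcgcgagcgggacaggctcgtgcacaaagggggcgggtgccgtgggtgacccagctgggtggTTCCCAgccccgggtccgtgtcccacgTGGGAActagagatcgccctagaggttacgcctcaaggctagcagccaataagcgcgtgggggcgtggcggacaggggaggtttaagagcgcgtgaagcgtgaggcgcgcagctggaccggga

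The *Hes1* window held the motif at 123 and 109 bases before the start, both in the same orientation, and the *Lfng* window held it at 150 and 123 bases before the start in opposite orientations. The letters were found in 4 of the 9 windows (*Dll1*, *Lfng*, *Rbpj* and *Hes1*) and in 21.6% of the 27457 promoters of the same length in the RefSeq table. The longer motif GTGGGAA, which contains TGGGAA and was likewise read on both strands, was found in 3 of the 9 windows and in 5.22% of all promoters. The windows were rich in G and C, at 61.6% to 70.4% against a median of 52% over all promoters. A match is a description of the letters, and the windows of *Jag1*, *Notch1* and *Notch3* held none.

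The libraries had column totals between 13261906 and 15659533 normalized counts, with upper quartiles from 542.75 to 577. The p-values for age set the difference between ages against the spread between these libraries. With 1 library per rat, spread between rats and spread between libraries cannot be told apart. The 13 rats fell into 2 sets that the labels do not name. With age means subtracted, the leading component over all genes carried 28.3% of the variation, and its largest gap separated 5 rats (75 and 80 at 6 weeks, 78, 81 and 83 at 10 weeks) from the other 8, here called the smaller and the larger set. All 13 rats were placed in the same sets when the Notch genes were left out. In 7 rats some whole numbers between 1 and 30 never occurred, with 7 to 16 such numbers in 4 of the 5 rats of the smaller set and 0 to 8 in the larger set, so low values move in steps in these libraries. Because the sets were read from the expression values themselves, values are given below with and without them, and differences between the sets are descriptions without a test. For the same reason p-values with the rat set as a term, or within 1 set, may be too small.

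Markers of luminal epithelium (*Krt8*, *Krt18* and others) and of basal epithelium (*Krt5*, *Krt14* and others) were present in every rat, and other cell types were present too. Here and below, rose and fell mean higher and lower at 6 weeks than at 10 weeks. Summed luminal epithelial markers ranged from 33840 to 64111 normalized counts at 6 weeks and from 48585 to 74786 at 10 weeks, and 2 of 8 (*Epcam* and *Ehf*) fell at 6 weeks. Summed basal markers ranged from 21717 to 32577 and from 28677 to 35497, and 1 of 7 (*Cnn1*) fell. *Kit* fell among 4 luminal progenitor markers, and *Cited1* rose among 7 hormone-sensing markers. Summed fibroblast markers, led by collagen genes, ranged from 106248 to 221823 at 6 weeks and from 19294 to 55217 at 10 weeks, and 3 of 6 rose (*Col1a1*, *Col3a1* and *Lum*). Of the other lists, 4 of 6 pericyte, 0 of 9 endothelial, 2 of 4 adipocyte (*Adipoq* and *Plin1*), 1 of 4 lymphocyte (*Cd79b*), 0 of 6 macrophage, 6 of 6 mast cell and 10 of 10 proliferation markers (*Mki67*, *Top2a* and others) rose, and none of these fell. Over all genes 8.71% rose and 7.39% fell. Of these 31 marker calls, 22 were made in every 1 of the 13 fits from which a single rat was missing, and the other 9 were lost in some of them (*Epcam*, *Cited1*, *Kit*, *Cnn1*, *Cspg4*, *Mcam*, *Cd79b*, *Hdc* and *Plk1*), that of *Epcam* in all 13.

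The question put to each gene was whether its level differed between the ages. *Jag1* rose at 6 weeks and no other of the 10 genes passed the threshold in the comparison of all 13 rats. The 6-week mean of *Jag1* was 1.38-fold the 10-week level, and *Notch3* and *Hey1* had larger fold changes, of 1.68-fold and 1.84-fold, with more spread between rats. The test was limma on log2(normalized count + 1) over all 14790 genes, a gene was called differentially expressed (DE) at a Benjamini-Hochberg adjusted p under 0.05, and a log2 fold change above 0 means higher at 6 weeks. At this threshold 8.71% of all genes were higher and 7.39% were lower at 6 weeks, beside 1 of the 10 Notch genes higher and 0 lower. An unadjusted p under 0.05 was reached by 3 of the 10 genes, beside 4667 of all 14790. The log2 fold change was above 0 in 6 of the 10, beside 7764 of all 14790, with a median of 0.17 against 0.028 over all genes. In these bulk samples fewer cells of a type and less RNA per cell cannot be told apart.

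**Figure D1:**
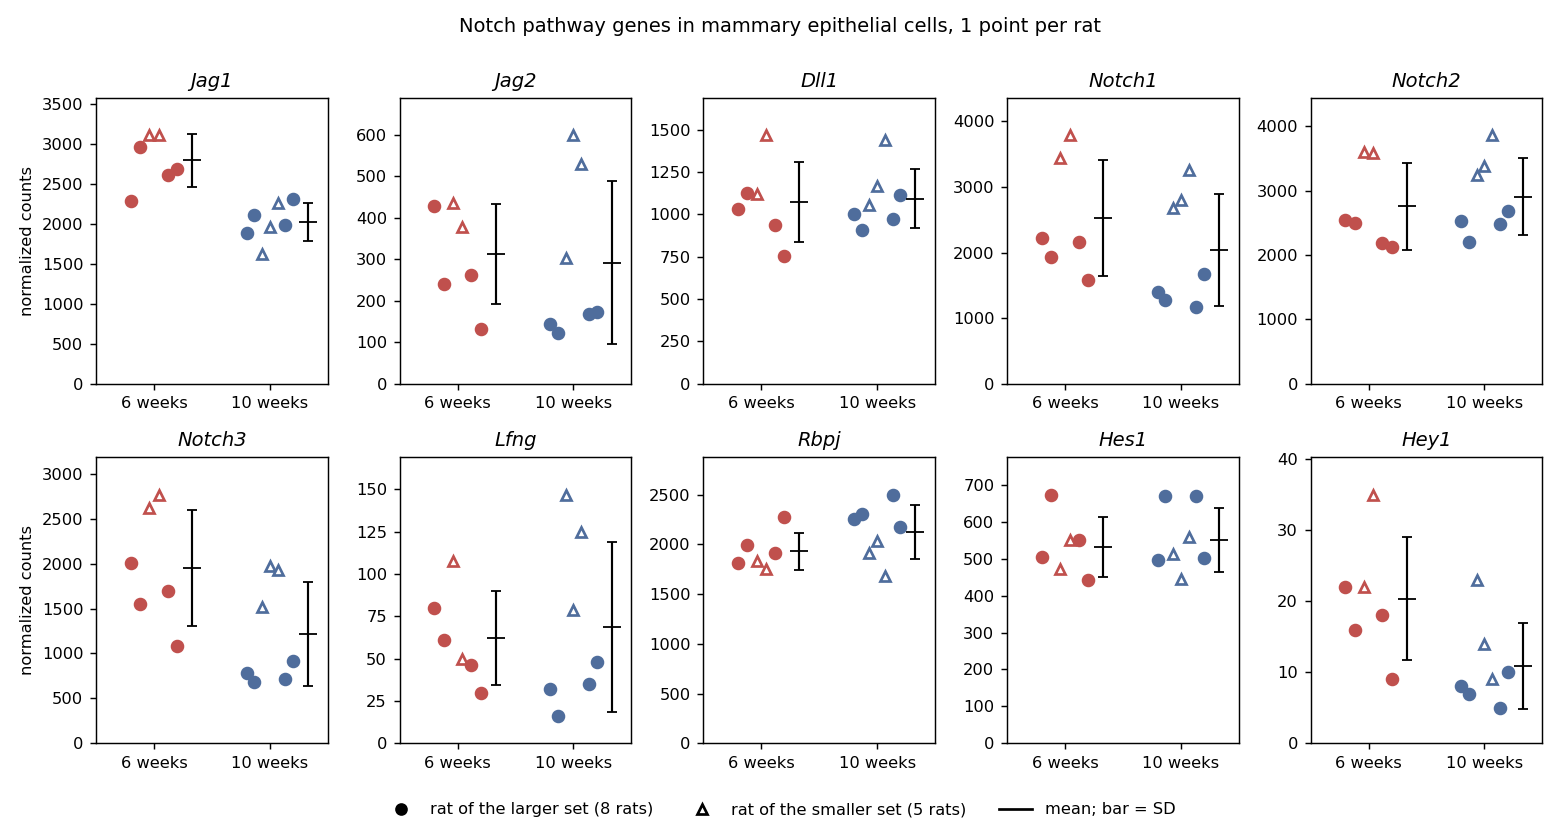
Normalized counts (vertical axes, each from 0) of the 10 Notch genes at 6 and 10 weeks, with 1 point per rat, filled circles for the larger set and open triangles for the smaller set, and a bar for mean and SD. The ages barely overlap for *Jag1*, while for *Notch1*, *Notch2* and *Notch3* the open triangles of both ages stand above the filled circles of their age.

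Among the ligands, *Jag1*, which encodes a Jagged ligand, had a lowest, median and highest normalized count of 2284, 2818.5 and 3111 at 6 weeks and of 1623, 1989 and 2312 at 10 weeks. Of the 6 young rats, 5 were above every 10-week rat, and the sixth (rat 70) lay just below the highest 10-week rat. Its log2 fold change was 0.47 (SE 0.11, 95% confidence interval 0.22 to 0.71, adjusted p = 0.0155 by limma). With the rat set as a term it was 0.47 (adjusted p = 0.0116). The larger set alone gave 0.34 (adjusted p = 0.0709) and the smaller set alone 0.69 (adjusted p = 0.300), so the call was lost with either set alone while the direction was the same in both. *Jag1* was also 1 of the least variable of the 10 genes, with a coefficient of variation of 11.7% at each age.

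*Jag2*, the second Jagged ligand, was not separated by age. Its lowest, median and highest values were 132, 320.5 and 435 at 6 weeks and 123, 173 and 600 at 10 weeks. This gave a log2 fold change of 0.25 (SE 0.42, 95% confidence interval −0.65 to 1.16, adjusted p = 0.715 by limma), an interval that holds changes in either direction. The 3 highest 10-week values (304, 531 and 600) were those of the smaller set, and the other 4 lay between 123 and 173. *Dll1*, a Delta-like ligand, had lowest, median and highest values of 754, 1078 and 1469 at 6 weeks and 905, 1053 and 1442 at 10 weeks, so that most rats of either age lay within the range of the other. Its log2 fold change was −0.041 (SE 0.15, 95% confidence interval −0.37 to 0.29, adjusted p = 0.878).

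The receptors differed from each other in how they stood with age. *Notch3* had the largest age difference of the 3, *Notch1* a smaller one, and *Notch2* values overlapped almost throughout. *Notch3* had lowest, median and highest values of 1079, 1850 and 2768 at 6 weeks and 681, 913 and 1970 at 10 weeks, and all 6 young rats were above the 10-week median. Its log2 fold change was 0.75 (SE 0.32, 95% confidence interval 0.066 to 1.43, unadjusted p = 0.0339, adjusted p = 0.123 by limma). The overlap between the ages came from the smaller set. In the larger set the 6-week rats had 2006, 1555, 1694 and 1079 and the 10-week rats 787, 681, 717 and 913, and in the smaller set the values were 2616 and 2768 at 6 weeks and 1522, 1970 and 1931 at 10 weeks. The ages thus did not overlap within either set, which was true of no other of the 10 genes and of 5.69% of all genes in the same direction. The log2 fold change of *Notch3* was 1.005 in the larger set (adjusted p = 0.0134), 0.58 in the smaller set (adjusted p = 0.322) and 0.85 with the set as a term (adjusted p = 0.00315).

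*Notch3* is a receptor of mural cells as well as of epithelium, and some pericyte markers were also higher at 6 weeks. Of 6 pericyte markers, 4 rose at 6 weeks (*Pdgfrb*, *Cspg4*, *Abcc9* and *Mcam*) and 0 fell, beside 8.71% and 7.39% of all genes. The median log2 fold change of the 6 was 0.64. The calls of *Pdgfrb* and *Abcc9* held in all 13 fits without 1 rat, that of *Cspg4* in 4 and that of *Mcam* in 1. The summed level of the 6 ranged from 4283 to 6180 at 6 weeks and from 2786 to 4300 at 10 weeks, and none of them was at 0 in every rat. By set, their median log2 fold change was 0.44 in the larger and 0.94 in the smaller, where *Notch3* had 1.005 and 0.58. At equal age 3 of the 6 were higher in the smaller set, by a median of 0.024, and *Notch3* was higher there by 1.01. No separate list of vascular smooth muscle markers was examined. In the basal epithelial list the contractile genes *Acta2*, *Myh11*, *Cnn1* and *Mylk* had log2 fold changes of −0.44, −0.34, −0.46 and −0.028. Of these only *Cnn1* passed, and the other 3 of the 7 basal markers were above 0. Endothelial markers, of which 0 of 9 passed, summed to between 8272 and 14823 at 6 weeks and between 7229 and 12086 at 10 weeks. The part of these cells in the *Notch3* values was not tested.

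*Notch1*, a receptor known from luminal progenitors, had lowest, median and highest values of 1588, 2191.5 and 3792 at 6 weeks and 1176, 1676 and 3251 at 10 weeks. Its log2 fold change was 0.35 (SE 0.29, 95% confidence interval −0.28 to 0.97, adjusted p = 0.437 by limma). In the larger set alone it was 0.52 (adjusted p = 0.0477), in the smaller set alone 0.32 (adjusted p = 0.473), with the set as a term 0.44 (adjusted p = 0.0194) and with quality weights 0.43 (adjusted p = 0.128). *Notch2* had lowest, median and highest values of 2121, 2521 and 3604 at 6 weeks and 2196, 2692 and 3866 at 10 weeks. Between the ages it differed by −0.087 on the log2 scale (SE 0.17, 95% confidence interval −0.46 to 0.29, adjusted p = 0.768).

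*Lfng* encodes Lunatic fringe, a glycosyltransferase that alters which ligands a receptor answers to, and it was among the most variable of the 10 genes, with a coefficient of variation of 44.5% at 6 weeks and 72.8% at 10 weeks. Its lowest, median and highest values were 30, 55.5 and 108 at 6 weeks and 16, 48 and 147 at 10 weeks. On the log2 scale the ages differed by 0.099 (SE 0.48, 95% confidence interval −0.94 to 1.14, adjusted p = 0.907 by limma). It was 0.72 in the larger set and −0.62 in the smaller set, but the difference between these age effects, tested as an interaction, had an adjusted p of 0.390. *Rbpj*, the DNA-binding partner of all Notch receptors, was the least variable at 6 weeks. It had lowest, median and highest values of 1748, 1875.5 and 2273 at 6 weeks and 1677, 2175 and 2500 at 10 weeks, with 5 of 6 young rats below the 10-week median. Its log2 fold change was −0.13 (SE 0.11, 95% confidence interval −0.37 to 0.11, adjusted p = 0.440).

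The target genes *Hes1* and *Hey1*, both transcriptional repressors, differed in their age values. *Hes1* had lowest, median and highest values of 442, 527 and 674 at 6 weeks and 445, 512 and 670 at 10 weeks, nearly the same range. Its log2 fold change was −0.048 (SE 0.13, 95% confidence interval −0.33 to 0.24, adjusted p = 0.832 by limma). *Hey1* was a low gene, with 22, 16, 22, 35, 18 and 9 normalized counts in the young rats 70, 71, 75, 80, 84 and 86, and with 8, 7, 23, 14, 9, 5 and 10 in the older rats 72, 74, 78, 81, 83, 85 and 87. Of the 6 young rats, 5 were above the 10-week median of 9 and the sixth was at it, but 4 older rats (78, 81, 83 and 87) lay within the young range. The log2 fold change was 0.88 (SE 0.33, 95% confidence interval 0.17 to 1.59, unadjusted p = 0.0191, adjusted p = 0.0861). Over the 13 fits without 1 rat it ranged from 0.71 to 1.08, with adjusted p-values up to 0.160, and 2 fits passed, those without rat 86 (1.08, adjusted p = 0.0374) and without rat 78 (1.07, adjusted p = 0.0315). It was 0.96 with the rat set as a term (adjusted p = 0.0181), 0.99 in the larger set alone (adjusted p = 0.0394) and 0.91 in the smaller set alone (adjusted p = 0.450).

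With the rat set as a term 4 of the 10 genes were higher at 6 weeks (*Jag1*, *Notch1*, *Notch3* and *Hey1*), beside 11.9% of all genes. The set was read from these same values with age means subtracted, so these calls may be too easily reached. In the larger set alone there were 3 (*Notch1*, *Notch3* and *Hey1*), beside 13.4% of all genes, and in the smaller set alone 0 of 10, where 0% of all genes passed. Sample quality weights also called 3 (*Jag1*, *Notch3* and *Hey1*), beside 20.3% of all genes. No gene of the 10 was called lower under any of these. The age effect itself was not shown to differ between the sets for any of the 10, with adjusted p-values of the limma interaction from 0.390 for *Lfng* to 0.953 for *Hey1*, and 0.0406% of all genes passed that test.

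**Figure D2:**
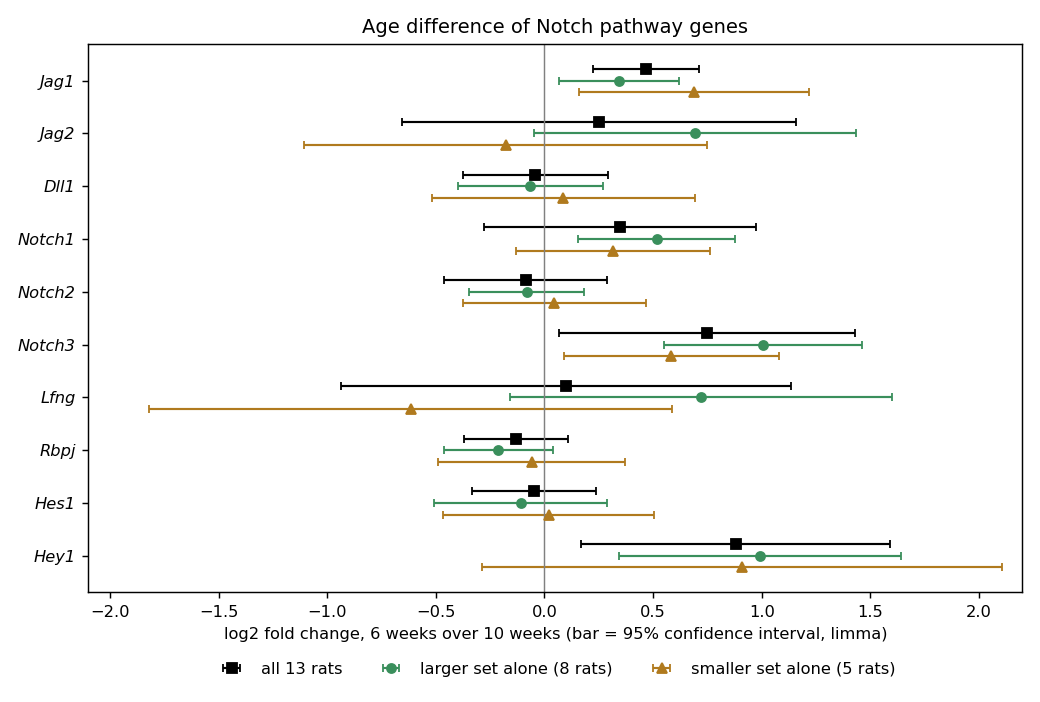
Log2 fold change of each gene, 6 weeks over 10 weeks (horizontal axis), with 95% confidence intervals from limma, for all 13 rats, for the larger set and for the smaller set. The intervals of *Jag1* and *Notch3* stay above 0 in all 3, that of *Hey1* reaches below 0 in the smaller set, and those of *Jag2* and *Lfng* are the widest over all rats and have estimates of opposite sign in the sets.

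Most of the 10 genes were higher in the smaller set of rats. At equal age the smaller set was higher in 8 of the 10, by a median of 0.70 on the log2 scale, against −0.050 over all genes, where 6716 of 14790 were higher, and 0.030 over 50 other genes of the pathway, where 30 were higher. The differences were 1.19 for *Lfng*, 1.16 for *Jag2*, 1.01 for *Notch3*, 0.98 for *Notch1*, 0.84 for *Hey1*, 0.56 for *Notch2* and 0.36 for *Dll1*. They were near 0 for *Jag1* (0.075) and below 0 for *Hes1* (−0.14) and *Rbpj* (−0.23). *Notch1* ranged from 2672 to 3792 in the smaller set and from 1176 to 2225 in the larger, and *Notch2* from 3240 to 3866 and from 2121 to 2692. These 2 genes did not overlap between the sets, which was true of 2.81% of all genes in that direction (2.31% in the other). Summed pericyte markers ranged from 2899 to 6180 in the smaller and from 2786 to 5639 in the larger set, and summed endothelial markers from 8335 to 14823 and from 7229 to 12086. The part of these cells and of library depth in the difference between the sets was not tested.

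Ratios of 2 genes within a rat largely cancel a factor applied to a whole library. They do so less fully at low counts such as those of *Hey1*, where rounding and the 1 added to each value weigh more. Of such log2 ratios, 6 were compared between the ages by an exact permutation test over every split of the 13 rats into 6 and 7, adjusted over the 6. *Notch3* gained on both other receptors at 6 weeks, and *Jag1* gained on *Dll1*. The log2 ratio of *Notch3* to *Notch1* ranged from −0.56 to −0.15 at 6 weeks and from −0.91 to −0.51 at 10 weeks, with 5 of 6 young rats above all older rats. The means were −0.37 ± 0.14 (SD, n = 6) and −0.77 ± 0.13 (SD, n = 7), a difference of 0.40 (two-sided exact permutation p = 0.00233, adjusted p = 0.00699). The log2 ratio of *Notch3* to *Notch2* ranged from −0.97 to −0.35 at 6 weeks and from −1.79 to −0.78 at 10 weeks, again with 5 of 6 young rats above all older rats. The means differed by 0.83 (exact permutation p = 0.00233, adjusted p = 0.00699).

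The log2 ratio of *Jag1* to *Dll1* was 1.40 ± 0.27 (SD, n = 6) at 6 weeks and 0.89 ± 0.23 (SD, n = 7) at 10 weeks, with 4 of 6 young rats above all older rats. The difference was 0.51 (exact permutation p = 0.00583, adjusted p = 0.0117). These 3 ratio differences passed in all 13 comparisons in which 1 rat was missing, with adjusted p-values from 0.00649 to 0.0253. How often ratios of other gene pairs would pass the same test was not examined, so these are not shown to be particular to Notch genes. Within the larger set, where 4 against 4 rats cannot give a p below 0.0286, the ages did not overlap for *Notch3* to *Notch1* (difference 0.49) or *Notch3* to *Notch2* (difference 1.09), each with that exact permutation p. For *Jag1* to *Dll1* the difference there was 0.41 (exact permutation p = 0.0571, adjusted p = 0.0686).

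The other ratios were less firm. *Notch1* gained on *Notch2* by 0.43 (exact permutation p = 0.0221, adjusted p = 0.0332), with a range of −0.42 to 0.079 at 6 weeks and −1.07 to −0.25 at 10 weeks. Leaving out any 1 of rats 75, 80, 84, 72, 74, 85 or 87 took the adjusted p of the exact permutation test to between 0.0617 and 0.0720. The log2 ratio of *Hes1* to *Hey1* was lower at 6 weeks by 0.93, at 4.73 ± 0.59 (SD, n = 6) against 5.66 ± 0.82 (SD, n = 7), with an exact permutation p of 0.0408 (adjusted p = 0.0490). Leaving out any 1 of rats 70, 75, 80, 84, 72, 74, 83, 85 or 87 took the adjusted p of the exact permutation test to between 0.0727 and 0.103. In the larger set the ages did not overlap for either ratio (differences 0.60 and −1.10, exact permutation p = 0.0286 each). *Jag1* to *Jag2* differed by 0.22 (exact permutation p = 0.642) and by −0.35 in the larger set (exact permutation p = 0.457).

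**Figure D3:**
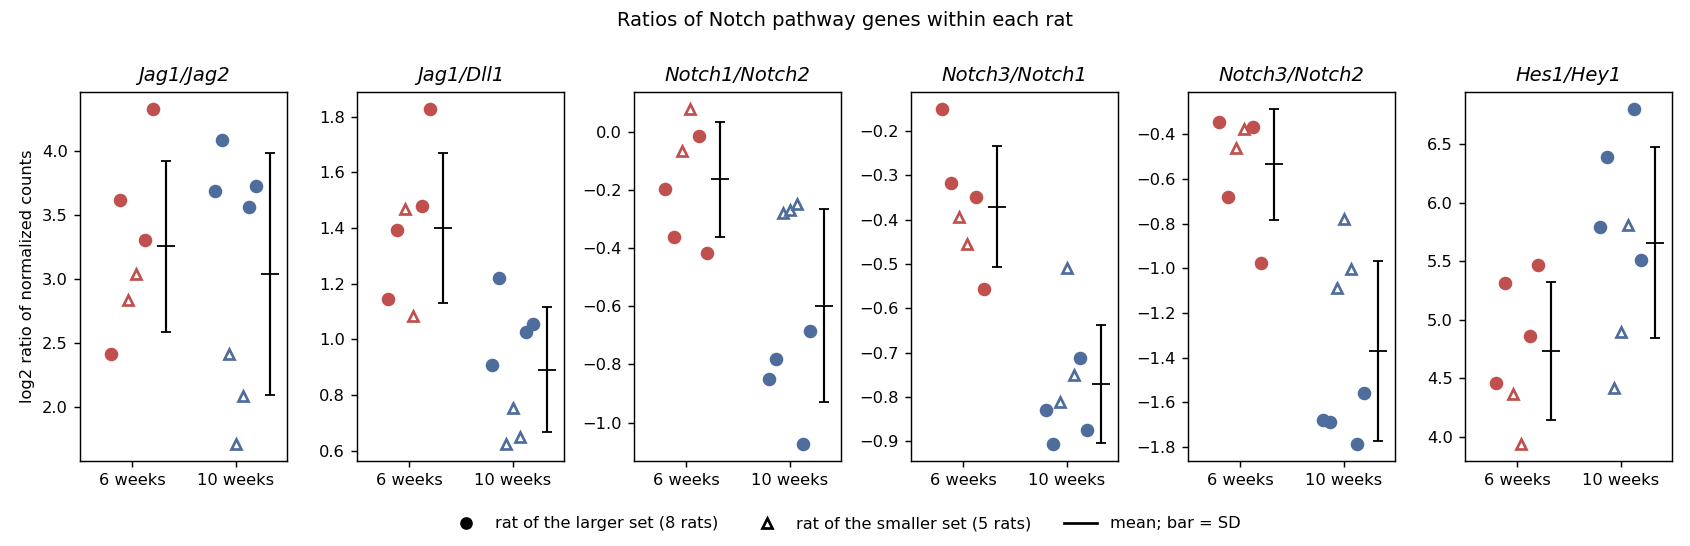
Log2 ratio of 2 Notch genes within each rat (vertical axes, which do not start at 0) at 6 and 10 weeks, with 1 point per rat, filled circles for the larger set, open triangles for the smaller set, and a bar for mean and SD. For *Notch3* over *Notch1* and over *Notch2*, 5 of the 6 young rats stand above every older rat, and for *Jag1* over *Jag2* the ages overlap.

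The genes were then compared with each other across the 8 rats of the larger set, with age means subtracted. For these pairs no value is given over all 13 rats, because the rats fell into separate sets. The leading component still ran from −45.8 to −4.02 within the larger set. In its order, 6-week rats 70, 84, 71 and 86 had *Notch1* at 2225, 2158, 1938 and 1588. *Hey1* was at 22, 18, 16 and 9 and *Rbpj* at 1813, 1915, 1989 and 2273. At 10 weeks these genes followed the component except between rats 85 and 74. The part of this component in the correlations was not tested. Of 45 pairs, 12 had an adjusted p under 0.05 for Pearson's r in a permutation test over all 40320 orders, 9 of them with r above 0 and 3 with r below 0, and 7 of the 12 also passed by Spearman's rho. *Notch1*, *Notch3* and *Hey1* varied together, and *Rbpj* varied against them. *Notch1* and *Hey1* had r = 0.960 and rho = 0.976 (n = 8, permutation p = 7.44e-05 and 0.000397, adjusted p = 0.00112 and 0.00298), and *Notch3* and *Hey1* had r = 0.933 and rho = 0.976 (permutation p = 0.000620 and 0.000397, adjusted p = 0.00539 and 0.00298). *Rbpj* and *Hey1* had r = −0.994 and rho = −1 (permutation p = 2.48e-05, the smallest these orders allow, and 4.96e-05, adjusted p = 0.00112 and 0.00223). Without the 2 rats farthest from the median of the first-named gene, r was 0.963, 0.808 and −0.969 for these 3 pairs.

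*Lfng* varied with *Notch2*, *Dll1* and *Jag2*, and also with *Notch3*. *Notch2* and *Lfng* had r = 0.958 and rho = 0.976 (n = 8, permutation p = 7.44e-05 and 0.000397, adjusted p = 0.00112 and 0.00298, r = 0.911 without 2 rats). Of the 8 pairs not given above, *Notch1* and *Rbpj* (r = −0.932), *Notch3* and *Rbpj* (r = −0.928) and *Notch1* and *Notch3* (r = 0.912) passed by both measures, with adjusted p of r from 0.00539 to 0.00845 and of rho from 0.00298 to 0.00733 (permutation, n = 8). *Jag2* and *Notch3* (0.934), *Dll1* and *Notch2* (0.861), *Dll1* and *Lfng* (0.838), *Notch3* and *Lfng* (0.822) and *Jag2* and *Lfng* (0.818) passed by r alone, with adjusted p of r from 0.00949 to 0.0402 and of rho from 0.0536 to 0.115 (permutation, n = 8). Among all 12 pairs r stayed at 0.695 or more in size without the 2 farthest rats. No pair with *Jag1* or *Hes1* passed, and the r of *Jag1* with the other 9 ranged from −0.39 to 0.27. High correlations were found with many other genes too, since 7.40% of 14778 genes had an r of at least 0.9 in size with *Jag2*, 4.29% with *Notch3*, 2.06% with *Rbpj*, 1.94% with *Hey1* and 0.298% with *Jag1*. All points share libraries and any scaling of them, and removing the age means leaves fewer free values than rats, so these p-values are somewhat too small.

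The genes most like *Jag1* were sought among 8813 genes with a mean of at least 100 normalized counts, by the r over all 13 rats with age means subtracted. This choice pools both sets of rats and is a description only, and the order was not the same in the larger set. The genes were *Kif24* with r = 0.846 over all 13 rats and 0.668 in the larger set, *Wwc2* with 0.842 and 0.820, and *Vezt* with 0.830 and 0.723. *Kif24* encodes a kinesin, *Wwc2* a WW-domain protein and *Vezt* an adherens junction protein. None of the 3 was DE, with log2 fold changes of 0.034, −0.14 and −0.085.

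The rest of the pathway was read from a list of 55 further genes, of which 50 were present. *Dner*, *Aph1b*, *Dtx1*, *Maml3* and *Hes5* were not among the genes analysed here. An unadjusted p under 0.05 was reached by 15 of the 50, beside 4667 of all 14790 genes, and the median log2 fold change was 0.11. Of the 50, 3 rose at 6 weeks, 4 fell and 43 did not pass. Both directions are near the background of 8.71% higher and 7.39% lower.

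**Figure D4:**
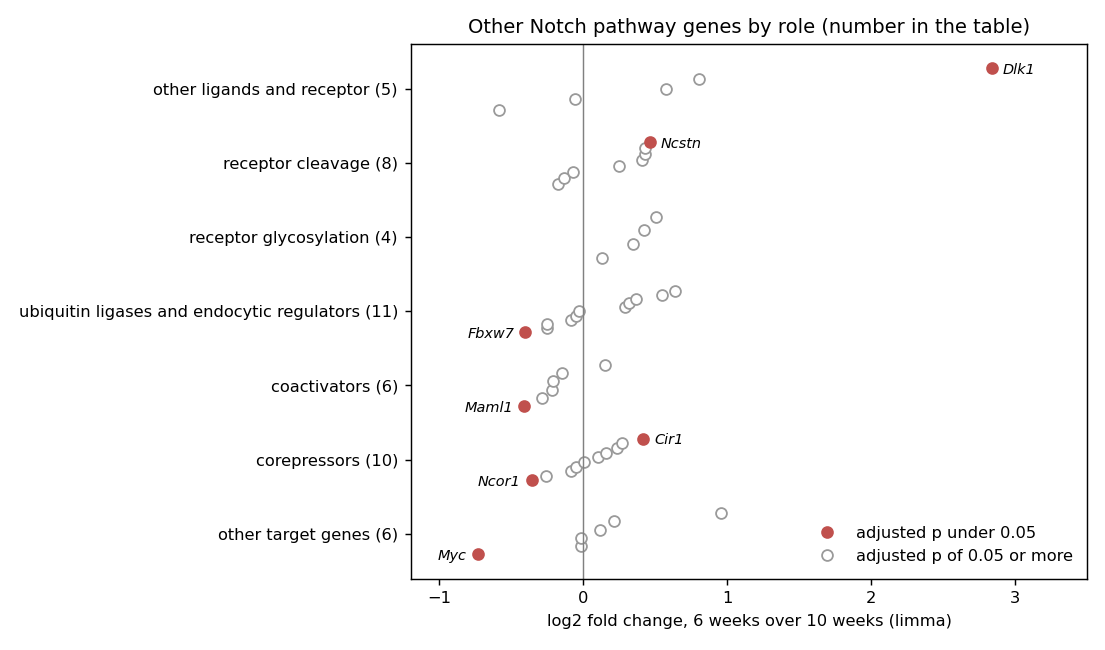
Log2 fold change, 6 weeks over 10 weeks (horizontal axis), of 50 other Notch pathway genes in 7 roles, with 1 point per gene, filled where the adjusted p of limma was under 0.05. *Dlk1*, *Ncstn* and *Cir1* stand to the right of 0 and *Myc*, *Maml1*, *Fbxw7* and *Ncor1* to the left.

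At the cell surface, *Dlk1*, a non-canonical ligand also known from adipocyte precursors, was higher at 6 weeks. It had 4.71 ± 4.07 (SD, n = 7) normalized counts at 10 weeks and 32.2 ± 6.34 (SD, n = 6) at 6 weeks. Its ranges, 1 to 12 and 24 to 40, did not overlap, as was true of 6.07% of all genes in either direction, and the log2 fold change was 2.83 (SE 0.41, adjusted p = 0.000839 by limma). The size of this fold rests on low counts and on the 1 added before taking logs. *Dll4*, the Delta ligand of vessels, had a log2 fold change of −0.057 (adjusted p = 0.889), and the endothelial receptor *Notch4* had 0.57 (adjusted p = 0.305). With the rat set as a term *Notch4* had 0.68 (adjusted p = 0.0374), in the larger set alone 0.87 without overlap of the ages (adjusted p = 0.0432), and in the smaller set alone 0.36 (adjusted p = 0.619). In the larger set 14.3% of all genes were higher at 6 weeks without overlap, and 13.4% were called higher.

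Among the genes that cut the receptor, *Ncstn*, which encodes the nicastrin subunit of γ-secretase, was higher at 6 weeks. It had 709.6 ± 78.3 (SD, n = 7) at 10 weeks and 980.3 ± 122 (SD, n = 6) at 6 weeks, with ranges of 620 to 841 and 846 to 1153 that did not overlap. The log2 fold change was 0.46 (SE 0.11, adjusted p = 0.0144 by limma). The protease gene *Adam17* had −0.17 (adjusted p = 0.249) and the convertase gene *Furin* 0.40 (adjusted p = 0.363). Of the 4 glycosylation genes 0 passed, and *Pofut1*, which adds the O-fucose that Fringe enzymes extend, came nearest with 0.50 (SE 0.17, adjusted p = 0.0577). Without rat 81, whose *Pofut1* value of 387 stood above the 178 to 242 of the other 10-week rats, it was 0.63 (adjusted p = 0.00336). This was the only 1 of the 13 fits without 1 rat that passed, and adjusted p-values of limma reached 0.129. In the larger set alone *Pofut1* had 0.70 (adjusted p = 0.0139) and in the smaller set alone 0.20 (adjusted p = 0.827). *Poglut1*, which adds O-glucose, had 0.13 (adjusted p = 0.460).

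Of the ubiquitin ligases and endocytic regulators, *Fbxw7*, whose product marks the intracellular domain for degradation, was lower at 6 weeks. It had 693.6 ± 79.0 (SD, n = 7) at 10 weeks and 525.2 ± 74.3 (SD, n = 6) at 6 weeks, a log2 fold change of −0.40 (SE 0.11, adjusted p = 0.0318 by limma). It missed the threshold when any 1 of rats 70, 71, 84, 86, 72, 74 or 87 was left out (adjusted p from 0.0536 to 0.0749) and with libraries scaled to equal totals (adjusted p = 0.0733). *Mib1*, a ligase that acts on ligands, had −0.088 (adjusted p = 0.538) and *Dtx3l* had 0.37 (adjusted p = 0.109).

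In the nucleus, *Maml1*, a Mastermind coactivator, was lower at 6 weeks. It had 1415 ± 113 (SD, n = 7) at 10 weeks and 1062 ± 87.8 (SD, n = 6) at 6 weeks without overlap, a log2 fold change of −0.41 (SE 0.092, adjusted p = 0.0108 by limma). The acetyltransferase genes *Ep300* and *Crebbp* had −0.29 (adjusted p = 0.114) and −0.21 (adjusted p = 0.207). The corepressor genes moved both ways. *Ncor1* was lower at 6 weeks, with 3593 ± 350 (SD, n = 7) at 10 weeks and 2802 ± 272 (SD, n = 6) at 6 weeks without overlap. Its log2 fold change was −0.36 (SE 0.10, adjusted p = 0.0299 by limma). *Cir1*, whose product links RBPJ to histone deacetylases, was higher at 6 weeks. It had 186.4 ± 15.5 (SD, n = 7) at 10 weeks and 249.8 ± 30.8 (SD, n = 6) at 6 weeks, likewise without overlap, with a log2 fold change of 0.42 (SE 0.10, adjusted p = 0.0183). The call of *Ncor1* was lost when any 1 of rats 70, 71, 80, 84, 72, 74, 78 or 87 was left out (adjusted p from 0.0505 to 0.0721) and with equal library totals (adjusted p = 0.0555). *Spen* had −0.26 (adjusted p = 0.322) and *Ctbp2* −0.054 (adjusted p = 0.739).

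Among the 6 other target genes, *Myc*, a proto-oncogene that Notch is known to turn on in several tissues, was lower at 6 weeks. It had 5207 ± 721 (SD, n = 7) at 10 weeks and 3126 ± 386 (SD, n = 6) at 6 weeks. The ranges were 4234 to 6359 and 2731 to 3566 and did not overlap, and the log2 fold change was −0.73 (SE 0.12, adjusted p = 0.00172 by limma). *Heyl* had −0.014 (adjusted p = 0.964) and *Ccnd1*, the cyclin D1 gene, 0.21 (adjusted p = 0.467).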

How the data were processed

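RNA of mammary epithelial cells was sequenced from 13 rats, each with its own library. Per the labels, counts came from RSEM (version 1.2.22). The values the authors deposited are whole numbers whose unit is taken here as a score, namely normalized counts. That they were scaled per library and rounded was inferred from the values. The processing notes name build rn5, the paper names rn6, and the annotation is not given in the sources used here. The authors' columns of their EdgeR comparison (log2 fold changes, p-values and false discovery rates) and a word on nuclear or cytoplasmic location were not used. The 13 rat columns were mapped to ages by the labels.

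The log2(normalized count + 1) values of genes with a mean of at least 1 (all 14790) were compared with limma 3.58.1 in R 4.3.3, two-sided, with Benjamini-Hochberg adjustment and a threshold of 0.05. The script was tested on simulated data. Permutation tests used scipy 1.17.1, pandas 2.3.3 and numpy 2.4.6 under Python 3.11.15. Correlations over all 13 rats had been planned and were replaced by the larger set for pairs of the 10 genes, since the rats form 2 sets, and kept only to choose the genes most like *Jag1*. Depth before scaling is not stated, so precision at low counts is unknown.

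The 10 genes, the pathway and marker lists and the tests were chosen with earlier results of these data known. Named were the 10 genes, every DE gene of the pathway and marker lists, per role the 2 genes of highest mean that did not pass, the first 2 genes of some marker lists, and the 3 genes most like each DE gene of the 10. Alternatives were other scalings, adding 0.1 in place of 1, requiring at least 10 in each rat, no minimum, limma-trend, quality weights, the rat sets, and each rat left out. The interaction test was added after the data were seen.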

Additional observations from a re-analysis of the deposited data

Results flagged for a closer look

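Lowest and highest rats were set against the rest of their age for each named Notch gene and each ratio, in 74 groups. In 3 of them 1 rat stood apart by Dixon's criterion, which chance meets in about 1 of 20 groups. *Furin* was at 4936 normalized counts in rat 83 at 10 weeks, where the others lay between 1928 and 3108. *Pofut1* was at 387 in rat 81 at 10 weeks, where the others lay between 178 and 242. *Ccnd1* was at 1353 in the same rat, where the others lay between 582 and 867. Both rats belong to the smaller set.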

How the results depend on the processing

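No paired analysis was possible because the ages share no replicate numbers. For the 10 genes, 211 of 239 values under alternatives kept direction and side of the threshold, 16 turned direction, 10 newly passed and 2 no longer passed (*Jag1* in either set alone). The cause of these shifts was not tested. No scaling moved the median of all genes by more than 0.046 on the log2 scale.

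In the smaller set alone the log2 fold change turned to −0.18 for *Jag2*, 0.086 for *Dll1*, 0.046 for *Notch2*, −0.62 for *Lfng*, 0.019 for *Hes1*, 0.23 for *Dll4*, 0.0050 for *Mib1*, 0.18 for *Heyl* and −0.24 for *Ccnd1*. Library size scaling turned *Dll1* to 0.0060 and *Heyl* to 0.033, quality weights *Hes1* to 0.090 and *Ctbp2* to 0.039, the larger set *Ctbp2* to 0.038 and the set term *Heyl* to 0.0021. None of these genes was DE. Leaving out 1 rat gave −0.14 to 0.055 for *Dll1*, −0.18 to 0.34 for *Lfng*, −0.12 to 0.0029 for *Hes1*, −0.16 to 0.072 for *Dll4*, −0.092 to 0.00049 for *Ctbp2* and −0.10 to 0.049 for *Heyl*.

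Of the 10 genes, 3 were called higher with quality weights, 4 with the set term, 3 in the larger set, 0 in the smaller set and 1 to 2 without 1 rat, against 1 in the comparison of all rats. Of the 50 other pathway genes, 11, 5, 6, 0 and 3 to 5 were called higher, against 3. Of all genes, 20.3% were called higher with quality weights, 11.9% with the set term, 13.4% in the larger set and 0% in the smaller set, against 8.71%. Without 1 rat 803 to 1461 of all 14790 genes were called higher, against 1288. The count of other pathway genes called lower, 4, became 2 with library size scaling, 0 in the smaller set and 2 to 4 without 1 rat. Over all 14790 genes the count called lower, 1093, became 772, 0 and 608 to 1219 under these settings. For the ratios in the larger set, *Jag1*/*Jag2* turned to −0.35 and *Jag1*/*Dll1* no longer passed at 0.41. Leaving out 1 rat gave differences of −0.0057 to 0.39 for *Jag1*/*Jag2*, 0.35 to 0.49 for *Notch1*/*Notch2* and −1.13 to −0.74 for *Hes1*/*Hey1*. By Spearman's rho 7 pairs passed in place of 12.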
